A study of Homo sapiens with 4 samples.

Results

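The genes described here are 10 members of the bone morphogenetic protein (BMP) pathway: the ligands BMP2, BMP4, BMP5, BMP6 and BMP7, the receptors BMPR1A and BMPR2, and the extracellular antagonists and modulators BMPER, NOG and CHRD. They were chosen by symbol from a table of 58274 gene identifiers, in which each of them had 1 row. At least 1 FPKM (fragments mapped per kilobase of transcript for each 1000000 fragments of the library, a level corrected for transcript length and depth) was reached in at least 1 library by 17137 genes and by 9 of the 10, BMP5 being the exception. A level of at least 10 FPKM was reached by 6 of the 10.

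RNA was sequenced from 4 successive populations of hematopoietic differentiation, all of the BC1 line, which consists of human induced pluripotent stem cells. These were BC1 cells before differentiation, day 2 mesoderm cells positive for APLNR (APLNR+), day 5 hemogenic endothelial progenitors (HEPs, CD31+CD34+) and day 8 hematopoietic progenitor cells (HPCs, CD43+). Per the labels, the differentiating cells received 50 ng/ml BMP4 and 40 ng/ml activin A for the first 2 days, followed by 40 ng/ml VEGF and 50 ng/ml bFGF. The study's methods give the 2 concentrations of BMP4 and activin A the other way round. All 3 differentiated populations had therefore been exposed to recombinant BMP4 protein, whereas BC1 cells had not. Added protein leaves no reads, so the BMP4 values below are for the cells' own transcript. The study asked how mesenchymal genes and the signals around them take part in the fate switches of this differentiation, and BMP4 is one of the inducers of its first stage.

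Each population was 1 library of 1 line, so no difference below has a replicate check and no test between populations was possible. The depth read from the steps between low values lay between 19400000 and 23300000 mapped fragments. Levels have exact Poisson 95% intervals, drawn in the plot of levels, and ratios have exact Clopper-Pearson 95% intervals, both from approximate fragments and covering counting error only. A gene is said to have risen or fallen where log2(FPKM + 1) moved by at least 1 between consecutive populations. The sorting markers were highest where the labels place them, with the exception of PECAM1 (CD31), which was at 93.1 FPKM in HEPs and 127 FPKM in HPCs. APLNR was at 1073 FPKM in APLNR+ cells, CD34 at 102 FPKM in CD31+CD34+ cells and SPN, which encodes CD43, at 92.4 FPKM in CD43+ cells.

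BMPs are secreted dimers of the TGF-beta superfamily that bind complexes of type I and type II serine/threonine kinase receptors. The activated type I receptor phosphorylates SMAD1, SMAD5 and SMAD9, which enter the nucleus with SMAD4 and act on genes such as the ID family. Secreted proteins such as Noggin and Chordin bind the ligands and keep them from the receptors, and BMP signalling is known for its part in gastrulation, the induction of mesoderm and the formation of blood and vessels.

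The stretches of 250 bases before the RefSeq transcription starts (GRCh38.p14) are shown for 4 members with different expression patterns: BMP4, which was highest in APLNR+ cells, BMP6 and CHRD, which were highest in CD31+CD34+ cells, and BMP5, which stayed low in every library. Each is written 5′ to 3′ on the strand of the gene, and capitals mark GGCGCC, a GC-rich element that SMAD proteins can bind and that reads the same on both strands. None of the 4 windows overlaps an exon of GENCODE release 29. The BMP4 window (chr14:53955051-53955300, minus strand) lies inside the gene, downstream of its outermost annotated start. The BMP6 window (chr6:7725849-7726098) and the CHRD window (chr3:184379804-184380053) are on the plus strand, and the BMP5 window (chr6:55875591-55875840) is on the minus strand.
BMP4: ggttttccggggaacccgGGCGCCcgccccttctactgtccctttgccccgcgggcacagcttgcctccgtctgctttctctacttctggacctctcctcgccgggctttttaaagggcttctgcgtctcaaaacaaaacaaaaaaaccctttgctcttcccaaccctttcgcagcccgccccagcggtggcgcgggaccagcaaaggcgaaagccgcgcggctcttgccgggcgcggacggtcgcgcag
BMP6: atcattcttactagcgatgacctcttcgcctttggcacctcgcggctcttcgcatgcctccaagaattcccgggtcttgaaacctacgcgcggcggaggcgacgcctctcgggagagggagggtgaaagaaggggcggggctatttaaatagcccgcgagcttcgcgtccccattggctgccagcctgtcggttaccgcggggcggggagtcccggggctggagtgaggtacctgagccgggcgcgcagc
CHRD: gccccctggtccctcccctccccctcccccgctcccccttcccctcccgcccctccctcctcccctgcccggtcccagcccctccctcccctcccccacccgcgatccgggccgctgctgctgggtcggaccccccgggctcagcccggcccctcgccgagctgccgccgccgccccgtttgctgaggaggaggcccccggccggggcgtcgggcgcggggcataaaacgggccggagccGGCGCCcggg
BMP5: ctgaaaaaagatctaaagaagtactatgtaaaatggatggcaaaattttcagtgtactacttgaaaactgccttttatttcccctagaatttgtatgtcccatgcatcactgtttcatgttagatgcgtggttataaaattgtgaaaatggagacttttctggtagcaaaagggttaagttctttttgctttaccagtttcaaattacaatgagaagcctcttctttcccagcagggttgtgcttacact

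The GC content of these windows was 63.6% for BMP4, 64.4% for BMP6, 81.6% for CHRD and 35.6% for BMP5, against a median of 58.0% over 35114 such windows of all genes. The windows held 25, 26, 27 and 1 CpG dinucleotides in the same order. GGCGCC was found once in the BMP4 window, once in that of CHRD and in neither of the others. RefSeq windows were at hand for 7 of the 10 members (10 windows in all), and the entries for BMP2, BMP7 and NOG were missing. BMPR2 had 1 GGCGCC, the 2 windows of BMPER had 1 and 2, and BMPR1A and the other 2 windows of BMP4 had none. Of all windows, 16.4% held this element, a share not matched for GC content. The member windows with it had 63.6% (BMP4) to 81.6% (CHRD) GC, and those without it 35.6% (BMP5) to 70.4% (BMP4). The windows not printed overlap annotated exons, with the exception of BMPR2. Exons of any gene were counted once for each transcript, so 1 exon can count several times. These counts were 2 and 5 for BMPER, 1 for BMPR1A and 1 and 6 for BMP4. The BMPR1A window ends before the annotated start of BMPR1A, so its exon is not one of that gene. The other motifs searched on both strands were CAGGTG (a Snail-type E-box, in 17.5% of all windows), AGATAA (bound by GATA factors, 9.17%), AGGTGTGA (T-box, 0.786%, which can overlap CAGGTG) and CTTTGAT (TCF/LEF, 2.26%). None of these 4 was found in any member window. These are matches of letters, and binding was not measured in these libraries. In a separate experiment, the study reports by chromatin immunoprecipitation that SNAIL1 could bind the BMP2 promoter. No BMP2 window was at hand, so the E-box search does not cover that promoter.

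BMP2 and BMP4 transcripts were concentrated in APLNR+ mesoderm cells. BMP2 (ENSG00000125845.6, chromosome 20, 6767664 to 6780280, plus strand, GRCh38), a ligand of heart and bone development, was at 0.912 FPKM in undifferentiated cells, 287 FPKM in mesoderm cells, 1.25 FPKM in HEPs and 0.349 FPKM in HPCs. It was thus high in a single library (95% counting interval of the level 283 to 291 FPKM) and at 1.25 FPKM or lower in the other 3. From BC1 to APLNR+ cells BMP2 rose 314.5-fold (95% counting interval 244 to 413), and to CD31+CD34+ cells it fell 229.5-fold (188 to 283). The BC1 and CD31+CD34+ levels could not be told apart by counting error, with a ratio of 1.37 (0.982 to 1.93). In APLNR+ cells 98.3% of the 17137 genes were below BMP2. In these bulk samples a smaller number of cells expressing a gene and less of its RNA per cell cannot be told apart.

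BMP4 (ENSG00000125378.15, chromosome 14, 53949736 to 53958761, minus strand), the ligand that was also added as protein, was at 1.83 FPKM in undifferentiated cells, 305 FPKM in mesoderm cells, 12.03 FPKM in HEPs and 1.32 FPKM in HPCs. Like BMP2 it was highest in APLNR+ cells, but it had an intermediate level in CD31+CD34+ cells (95% counting interval 10.7 to 13.4 FPKM). BMP4 rose 167-fold (95% counting interval 123 to 232) into APLNR+ cells, fell 25.3-fold (22.6 to 28.4) into CD31+CD34+ cells and fell 9.08-fold (6.31 to 13.5) into CD43+ cells. Its levels at both ends, in BC1 and CD43+ cells, had a ratio of 1.38 with an interval from 0.849 to 2.26. The ratio of BMP4 to BMP2 was 1.06 in APLNR+ cells and 9.62 in CD31+CD34+ cells, the population in which the pair differed most.

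BMP6 was low in APLNR+ cells, where BMP2 and BMP4 had their peak, and highest in CD31+CD34+ cells. BMP6 (ENSG00000153162.8, chromosome 6, 7726797 to 7881422, plus strand), a ligand made by endothelial cells of the liver that controls hepcidin, was at 0.947 FPKM in undifferentiated cells, 0.148 FPKM in mesoderm cells, 7.30 FPKM in HEPs and 0.278 FPKM in HPCs. Only the CD31+CD34+ library was above 1 FPKM, with a counting interval of 6.62 to 8.03 FPKM. BMP6 rose 49.3-fold (95% counting interval 24.7 to 116) from APLNR+ to CD31+CD34+ cells and fell 26.2-fold (15.7 to 47.4) into CD43+ cells. The BC1 level was 6.40-fold (2.98 to 15.8) that of APLNR+ cells, but on the log2(FPKM + 1) scale this difference was -0.76, below the threshold of 1. The APLNR+ value rested on about 8 fragments and could not be ordered against that of CD43+ cells, with a ratio of 1.88 (0.744 to 5.15).

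BMP7 (ENSG00000101144.12, chromosome 20, 57168748 to 57266629, minus strand), a ligand of kidney and eye development, was at 7.92 FPKM in undifferentiated cells, 8.02 FPKM in mesoderm cells, 0.646 FPKM in HEPs and 0.0633 FPKM in HPCs. The early pair of libraries was higher than the late pair. The BC1 and APLNR+ levels had a ratio of 1.01 (95% counting interval 0.847 to 1.21), and BMP7 fell 12.4-fold (8.09 to 19.96) from APLNR+ to CD31+CD34+ cells. In CD43+ cells its level stood for about 2 fragments, under the floor of 3, and the ratio of CD31+CD34+ to CD43+ cells was 10.2 with a wide interval (2.57 to 84.8). On the log2(FPKM + 1) scale that last difference was -0.63.

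BMP5 (ENSG00000112175.7, chromosome 6, 55753645 to 55875564, minus strand), a ligand of skeletal development, was at 0.0138 FPKM in undifferentiated cells, 0.0505 FPKM in mesoderm cells, 0.231 FPKM in HEPs and 0 FPKM in HPCs. It did not reach 1 FPKM in any library and was at or under 3 fragments in BC1 and CD43+ cells. CD31+CD34+ cells had the most, 4.57-fold (95% counting interval 1.52 to 18.6) the APLNR+ level. BMP5 was at least 4.45-fold lower in CD43+ than in CD31+CD34+ cells by the lower 95% counting limit of the ratio, and 6.02-fold lower when the floor of 3 fragments stood in for the 0.

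**Figure D1:**
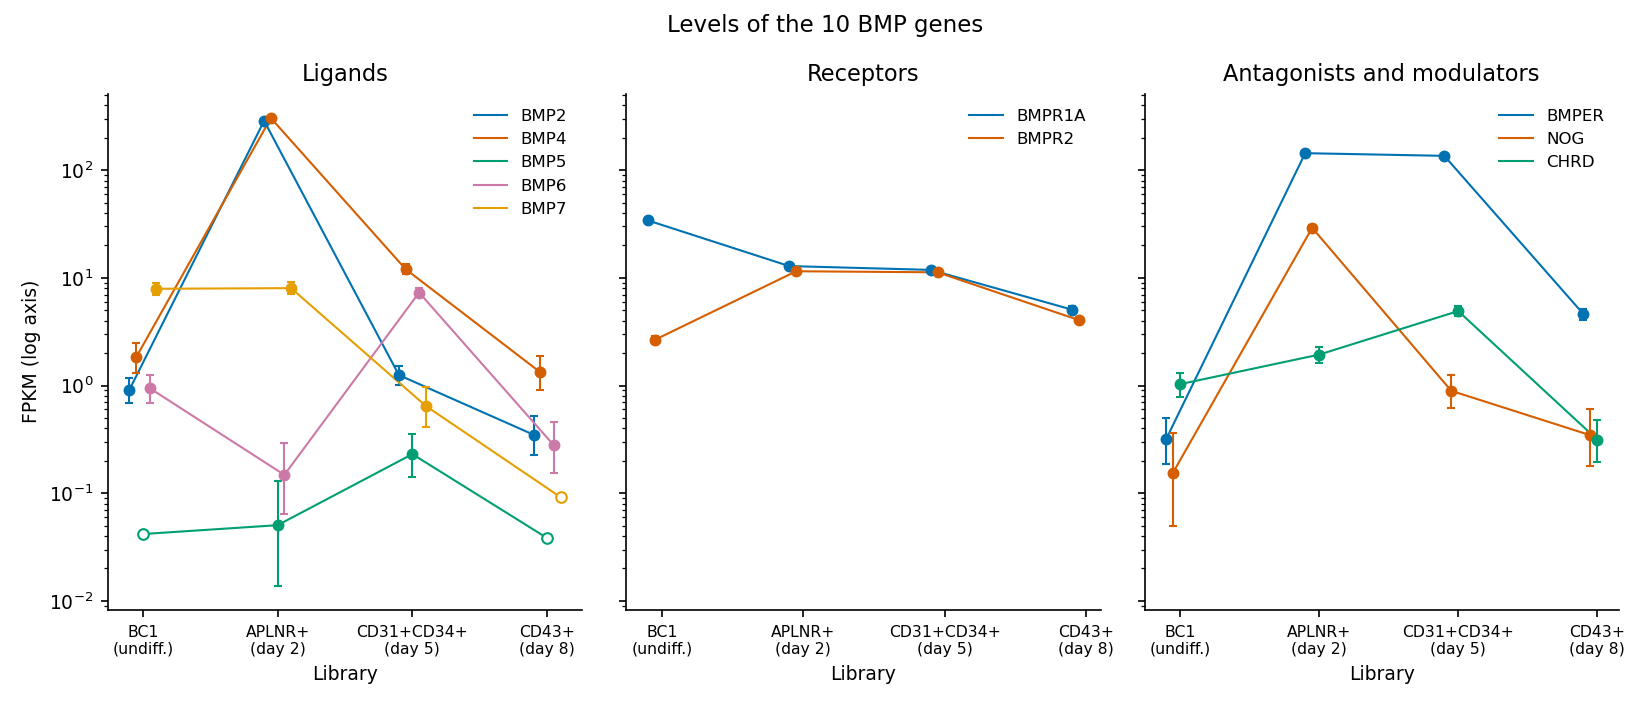
FPKM (log axis) of the 10 BMP genes in the 4 libraries, grouped by role, with exact Poisson 95% intervals from approximate fragments and open symbols at the floor of 3 fragments for the 3 values at or under it. BMP2, BMP4 and NOG peak in APLNR+ cells at 287, 305 and 29.1 FPKM, BMPER is at 144 and 136 FPKM in APLNR+ and CD31+CD34+ cells, and BMP6 and CHRD peak in CD31+CD34+ cells at 7.30 and 4.91 FPKM.

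The 2 receptors moved over a narrower range than BMP2 and BMP4, and lay close to each other from APLNR+ cells on. BMPR1A (ENSG00000107779.13, chromosome 10, 86756601 to 86932838, plus strand), a type I receptor for BMP2 and BMP4, was at 34.2 FPKM in undifferentiated cells, 12.9 FPKM in mesoderm cells, 11.9 FPKM in HEPs and 5.07 FPKM in HPCs. It was the only member with its highest level in BC1 cells. BMPR1A fell 2.66-fold (95% counting interval 2.501 to 2.82) into APLNR+ cells and 2.34-fold (2.13 to 2.58) into CD43+ cells. Between these steps the APLNR+ to CD31+CD34+ ratio was 1.08 (1.01 to 1.17).

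BMPR2 (ENSG00000204217.13, chromosome 2, 202376936 to 202567751, plus strand), the type II receptor whose mutations cause heritable pulmonary arterial hypertension, was at 2.65 FPKM in undifferentiated cells, 11.5 FPKM in mesoderm cells, 11.2 FPKM in HEPs and 4.05 FPKM in HPCs. The 2 middle libraries were higher than both ends. BMPR2 rose 4.33-fold (95% counting interval 3.93 to 4.79) into APLNR+ cells and fell 2.78-fold (2.56 to 3.01) into CD43+ cells. Its APLNR+ and CD31+CD34+ levels differed by less than counting error, with a ratio of 1.02 (0.966 to 1.08). The ratio of BMPR1A to BMPR2 was 12.9 in BC1 cells and between 1.05 and 1.25 in the 3 differentiated populations.

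Of the 3 antagonists and modulators among the members, BMPER was the one with a high level in more than 1 library. BMPER (ENSG00000164619.8, chromosome 7, 33904911 to 34155872, plus strand), a BMP-binding protein of endothelial cells with both inhibiting and enhancing activities, was at 0.317 FPKM in undifferentiated cells, 144 FPKM in mesoderm cells, 136 FPKM in HEPs and 4.61 FPKM in HPCs. In the 2 middle libraries, 96.2% and 96.1% of the 17137 genes were below BMPER. BMPER rose 453-fold (95% counting interval 286.5 to 765) into APLNR+ cells and fell 29.5-fold (26.2 to 33.3) into CD43+ cells. The ratio of APLNR+ to CD31+CD34+ cells was 1.06 (1.03 to 1.09), while BMP2, BMP4 and NOG all fell over the same step.

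NOG (ENSG00000183691.4, chromosome 17, 56593699 to 56595590, plus strand), which encodes the antagonist Noggin, was at 0.155 FPKM in undifferentiated cells, 29.1 FPKM in mesoderm cells, 0.893 FPKM in HEPs and 0.345 FPKM in HPCs. A single library was above 1 FPKM, and its counting interval was 27.4 to 31.0 FPKM. NOG rose 187-fold (95% counting interval 79.7 to 582) into APLNR+ cells and fell 32.6-fold (23.1 to 47.5) into CD31+CD34+ cells. The BC1 value rested on about 5 fragments, and the CD43+ to BC1 ratio of 2.22 had an interval from 0.726 to 8.10.

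CHRD (ENSG00000090539.15, chromosome 3, 184380073 to 184390736, plus strand), which encodes the antagonist Chordin, was at 1.03 FPKM in undifferentiated cells, 1.94 FPKM in mesoderm cells, 4.91 FPKM in HEPs and 0.314 FPKM in HPCs. Its level was highest in CD31+CD34+ cells and lowest in CD43+ cells. CHRD rose 2.54-fold (95% counting interval 2.07 to 3.13) from APLNR+ to CD31+CD34+ cells, a change of 1.01 on the log2(FPKM + 1) scale that lay just past the threshold, and one of 0.98 when the libraries were rescaled by the median of ratios. It fell 15.7-fold (10.1 to 25.7) into CD43+ cells. Exons of CHRD overlap THPO on the opposite strand, which was at 0.406, 1.09, 0.300 and 0.163 FPKM from BC1 to CD43+ cells. Whether counting used strand is not given in the sources used here, so reads of the overlap cannot be told apart.

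Ranked by level, 6 of the 10 members were highest in APLNR+ cells (BMP2, BMP4, BMP7, BMPR2, BMPER and NOG), 3 in CD31+CD34+ cells (BMP5, BMP6 and CHRD), 1 in BC1 cells and 0 in CD43+ cells. The CD43+ library was the lowest for 6 members and BC1 for 3. BMP6 alone had its lowest value in APLNR+ cells, which counting error does not separate from its CD43+ value. Nor does it separate the highest values of BMP7 and BMPR2 from those of BC1 and CD31+CD34+ cells, respectively. The same holds for the lowest values of BMP4 and BMP5 against BC1 cells, and of NOG against CD43+ cells. No share of all genes was taken for these orders or for the pairs below, so the counts stand without a background. Of the 60 pairs of libraries over the 10 members, 9 could not be ordered beyond counting error. Besides the pairs of BMP2, BMP4, BMP7, BMPR2 and NOG given above, these were the CD43+ and APLNR+ levels of BMP6 and the 3 pairs among the BC1, APLNR+ and CD43+ levels of BMP5.

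At the transition from BC1 to APLNR+ cells, 5 of the 9 members kept rose (BMP2, BMP4, BMPR2, BMPER and NOG) and 1 fell (BMPR1A). Of all 17137 genes, 9.15% rose and 9.32% fell. The median change in log2(FPKM + 1) was 1.78 for the members and 0.00 for all genes. BMP2 with a rise of 7.23, BMPER with 6.78 and BMP4 with 6.76 were at ranks 11, 15 and 16 from the largest rise of all genes. NOG, with 4.71, was at rank 59 and BMPR2, with 1.78, at rank 587. BMP6, BMP7 and CHRD changed by less than the threshold, with values of -0.76, 0.02 and 0.53.

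From APLNR+ to CD31+CD34+ cells, 2 members rose (BMP6 and CHRD) and 4 fell (BMP2, BMP4, BMP7 and NOG), where 13.0% of all genes rose and 11.4% fell. The median change was -0.11 for the members and 0.01 for all genes on the log2(FPKM + 1) scale. BMP2 fell by 6.999, BMP4 fell by 4.55 and NOG fell by 3.99, at ranks 14, 51 and 80 from the largest fall. BMP6 rose by 2.85. Both receptors and BMPER stayed within 0.11 of their APLNR+ values. This transition and the ones before and after it share a library, so a high or low value in one population enters both.

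From CD31+CD34+ to CD43+ cells, 0 members rose and 6 fell (BMPER, BMP6, BMP4, CHRD, BMPR2 and BMPR1A), where 7.63% of all genes rose and 13.5% fell. The median change was -1.28 for the members and -0.08 for all genes on the log2(FPKM + 1) scale. BMPER fell by 4.61, at rank 42 from the largest fall, BMP6 fell by 2.70, BMP4 fell by 2.49 and CHRD fell by 2.17. BMP2, BMP7 and NOG, at 1.25 FPKM or lower already in CD31+CD34+ cells, had values of -0.74, -0.63 and -0.49. With a pseudocount of 0.1 in place of 1 these 3 passed the threshold, at -1.59, -2.19 and -1.16. BMPR1A was at -1.08, and at -0.99 under median-of-ratios scaling. BMP5, which was not kept, had values of 0.05, 0.23 and -0.30 at the 3 transitions.

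**Figure D2:**
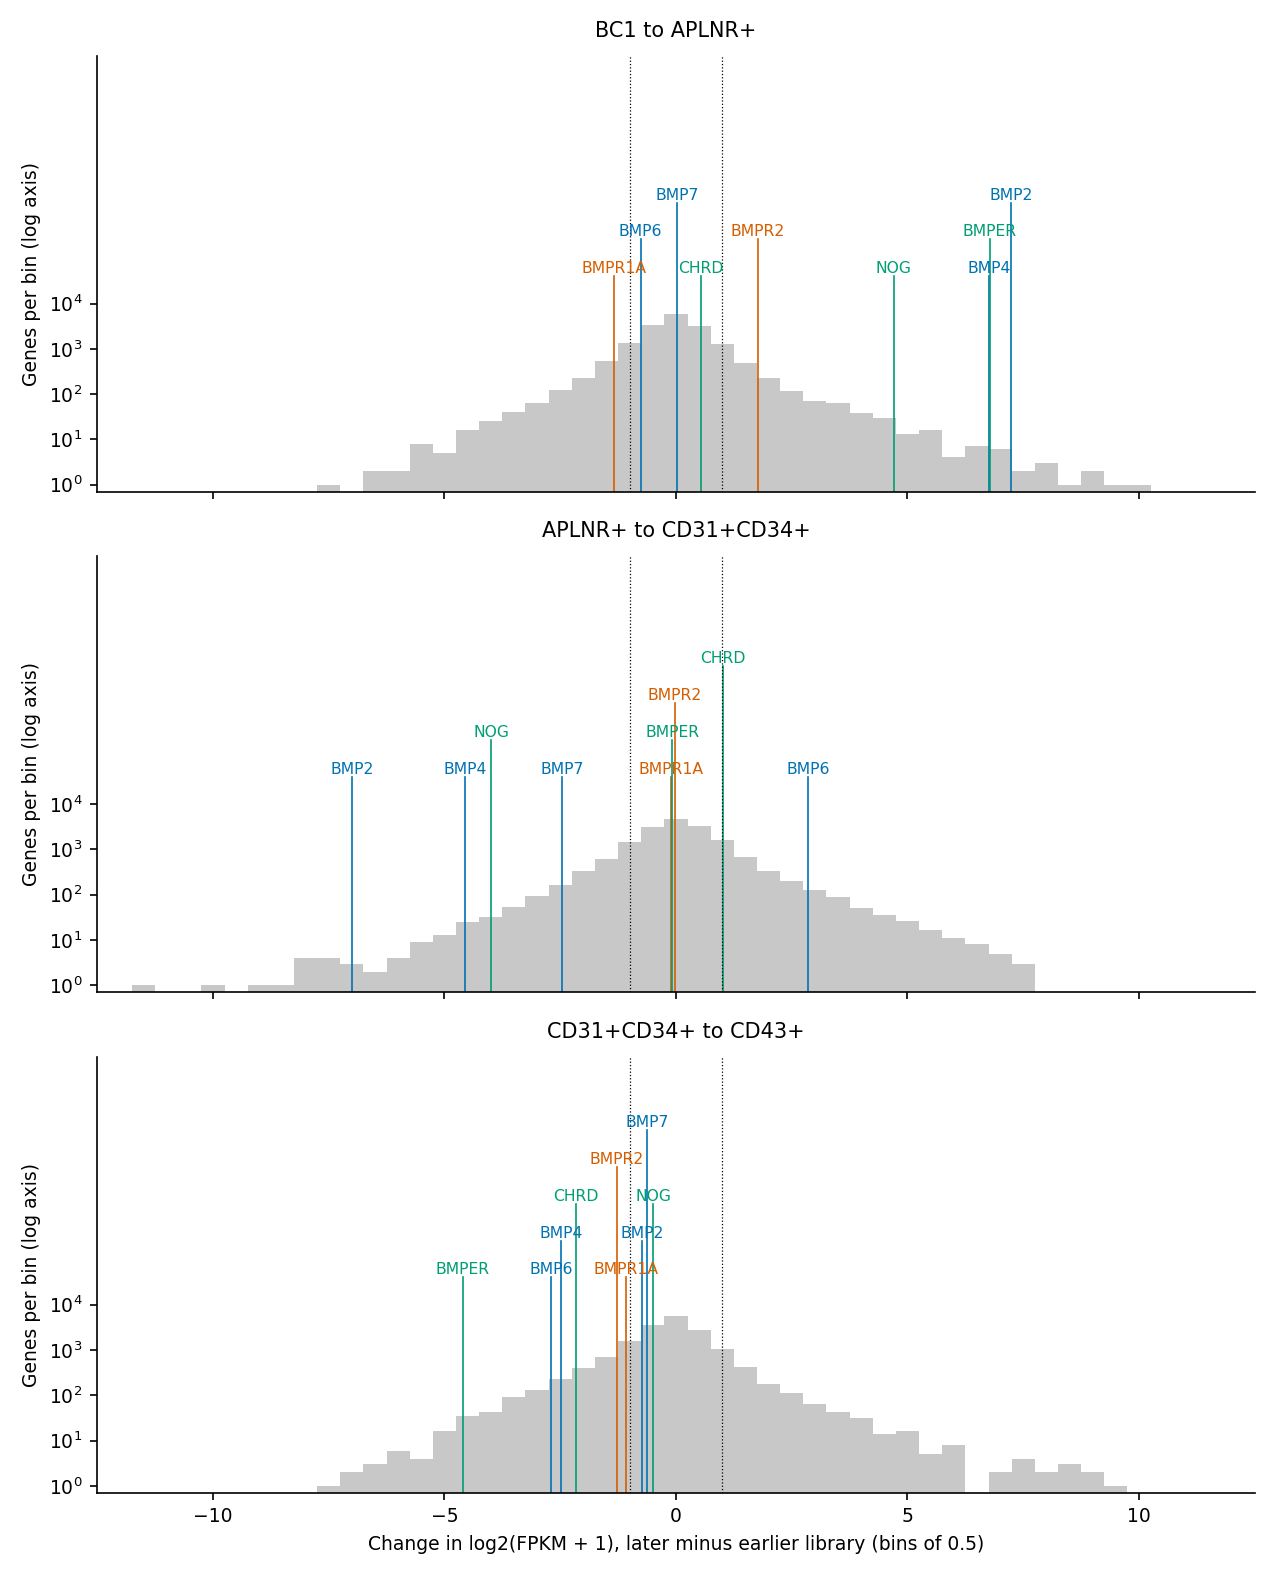
Number of genes (log axis) by change in log2(FPKM + 1) at each of the 3 transitions for the 17137 genes kept, with coloured lines at the 9 members kept (ligands blue, receptors orange, antagonists and modulators green) and dotted lines at a change of 1 in either direction. BMP2, BMP4 and BMPER lie in the right tail at the first transition, BMP2, BMP4 and NOG in the left tail at the second, and all 9 members lie to the left of 0 at the third.

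The balance between the roles of the 10 members differed from population to population. The 5 ligands summed to 11.6 FPKM in undifferentiated cells, 599.6 FPKM in mesoderm cells, 21.4 FPKM in HEPs and 2.02 FPKM in HPCs. The 3 antagonists and modulators summed to 1.502, 175, 141.5 and 5.27 FPKM in the same order. The 2 receptors summed to 36.8, 24.4, 23.1 and 9.12 FPKM. Among these 10 genes, ligands thus had the largest sum in APLNR+ cells, binding proteins in CD31+CD34+ cells and receptors in BC1 and CD43+ cells. Over the same 8 ligands and binding proteins, the ratio of binding proteins to ligands was 0.129 in undifferentiated cells, 0.291 in mesoderm cells, 6.59 in HEPs and 2.61 in HPCs. These orders and ratios hold for the 10 members alone. The 18 other extracellular modulators of the pathway lists summed to 206.5, 3274, 449.9 and 84.0 FPKM from BC1 to CD43+ cells, above the member ligands in all 4 libraries, and 2991 FPKM of the APLNR+ sum was CER1. The 12 other ligands summed to 8.67, 12.34, 8.64 and 2.62 FPKM. All of these are RNA levels and not levels of protein.

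The make-up of the ligand sum also differed between populations. In BC1 cells BMP7 gave 68.2% of it and BMP4 15.7%. In APLNR+ cells BMP4 gave 50.8% and BMP2 47.8%, which left 1.34% to BMP7 and less to BMP5 and BMP6. In CD31+CD34+ cells BMP4 gave 56.1% and BMP6 34.0%. BMP4 was therefore the leading ligand in all 3 differentiated populations, and the ligand next to it was BMP2, then BMP6, then BMP2 again with 17.3% in CD43+ cells. BMPER gave 82.2%, 95.9% and 87.5% of the binding protein sum in APLNR+, CD31+CD34+ and CD43+ cells, whereas CHRD led in BC1 cells with 68.5% of a low sum.

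**Figure D3:**
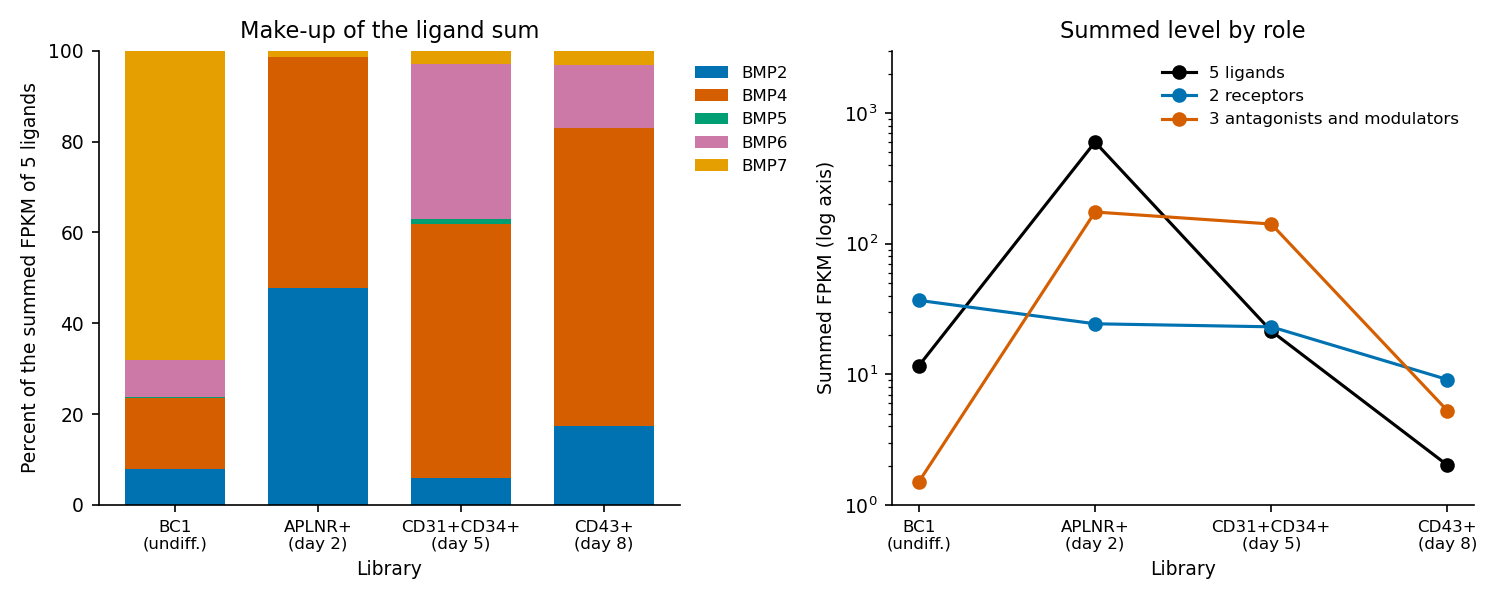
Left, share of each of the 5 ligands in their summed FPKM (stacked percent) in the 4 libraries. Right, summed FPKM by role (log axis): the ligand sum peaks in APLNR+ cells at 599.6 FPKM, the sum of antagonists and modulators is above the ligand sum in CD31+CD34+ cells (141.5 against 21.4 FPKM), and the receptor sum lies between 9.12 and 36.8 FPKM.

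Several cell type marker lists moved along with these genes. Mesoderm markers (6 genes, among them APLNR and HAND1) summed to 2.52, 2218, 217 and 26.8 FPKM from BC1 to CD43+ cells. Of these, 6 of 6 were at or above 1 FPKM in APLNR+ cells, where BMP2, BMP4 and NOG were highest. APLNR, the sorting marker of that library, made up 1073 FPKM of the 2218. The sum of the 6 endoderm markers was also highest there, at 388 FPKM against 1.57, 160 and 44.3 FPKM in BC1, CD31+CD34+ and CD43+ cells. GATA6, which mesoderm also expresses, made up 363 FPKM of the 388, while SOX17 was at 16.6 FPKM and FOXA2 at 0.588 FPKM. HHEX and FOXA1 were instead highest in CD31+CD34+ cells, HHEX at 87.9 FPKM against 7.13 FPKM in APLNR+ cells and FOXA1 at 1.56 against 0.151 FPKM. The 5 pluripotency markers summed to 2844 FPKM in BC1 cells and to 779, 146.5 and 116 FPKM in the later populations. From BC1 to APLNR+ cells POU5F1 went from 1997 to 573 FPKM, LIN28A from 363 to 158.5 FPKM and DPPA4 from 288.5 to 45.75 FPKM. SOX2 went from 172 to 0.766 FPKM and NANOG from 23.6 to 0.957 FPKM. Beside the BMPR1A fall and the BMP2 and BMP4 rises, the part of these lists was not tested.

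In CD31+CD34+ cells, where BMP6 and CHRD were highest, the 6 endothelial markers summed to 1300 FPKM. Of these, 6 of 6 were at or above 1 FPKM there. Their sum was 40.9, 74.1 and 288 FPKM in BC1, APLNR+ and CD43+ cells. The sorting markers PECAM1 and CD34 are among them, at 93.1 and 102 FPKM in the CD31+CD34+ library. The sum of the 8 fibroblast and mural markers was also highest in that library, at 460.0 FPKM against 57.6, 112 and 82.1 FPKM, with COL1A1 at 184 FPKM and COL1A2 at 207 FPKM. PDGFRA, DCN and LUM were instead highest in APLNR+ cells, at 14.2, 0.301 and 0.963 FPKM. In CD31+CD34+ cells PDGFRA was at 4.96 FPKM, DCN was listed at 0 and LUM was at 0.187 FPKM. The 6 hematopoietic markers summed to 1773 FPKM in CD43+ cells, against 11.4, 8.28 and 253 FPKM in BC1, APLNR+ and CD31+CD34+ cells. The sorting marker SPN is among them, at 92.4 FPKM in CD43+ cells. BMP2, BMP7, BMPR1A and CHRD were lowest in CD43+ cells beyond counting error. The 5 neural markers summed to 329, 257, 109 and 25.6 FPKM from BC1 to CD43+ cells. TUBB3 was at 275 FPKM in BC1 cells and 108 FPKM in APLNR+ cells. NES and NCAM1 were instead higher in APLNR+ cells, at 77.8 against 50.9 FPKM and at 70.95 against 2.11 FPKM. PAX6 and SOX1 stayed at or below 0.302 FPKM. The part of these lists in the changes of BMP6, CHRD and BMPER was not tested.

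The genes whose profile over the 4 libraries was most like that of a member were found among 13901 protein-coding genes by the root mean squared difference of centred log2(FPKM + 1) values. For BMP2 they were EOMES (0.15), MIXL1 (0.34) and GSC (0.41), transcription factors of the primitive streak. EOMES was at 205 FPKM and MIXL1 at 474 FPKM in APLNR+ cells, and both were below 1 FPKM in the other 3 libraries. For BMP4 the nearest were PLXNA2 (0.28), LHX1 (0.30) and HAS2 (0.41). PLXNA2, a semaphorin receptor, was at 161 FPKM in mesoderm cells and 4.81 FPKM in HEPs, an intermediate level like that of BMP4.

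For NOG the nearest profiles were those of ACKR3 (0.12), FZD8 (0.16) and HS3ST1 (0.21), and ACKR3, a chemokine receptor, was at 38.5 FPKM in APLNR+ cells. BMPER had no profile as near, its closest being SMAD6 (0.62), COLEC12 (0.65) and WLS (0.71). SMAD6, an inhibitory SMAD, was higher in CD31+CD34+ cells (486 FPKM) than in APLNR+ cells (206 FPKM), whereas BMPER was about level. The nearest genes were PRODH (0.10), OLFML2B (0.10) and C16orf74 (0.12) for BMPR1A, and ZNF503 (0.10), WNK4 (0.11) and KDM7A (0.11) for BMPR2. Those of BMPR1A all had lower levels than the receptor, at most 6.37 FPKM in BC1 cells. Adding 1 to FPKM narrows the changes of such low genes, so near distances do not mean like ratios. PRODH was at 6.37 FPKM in BC1 and 0.164 FPKM in CD43+ cells, against 34.2 and 5.07 FPKM for BMPR1A. ZNF503 was at 0.263 FPKM in BC1 and 3.56 FPKM in APLNR+ cells, against 2.65 and 11.5 FPKM for BMPR2. With 4 libraries many genes share a shape, and the distances are a description.

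Among the other genes of the pathway (57 genes on 5 lists, 40 of them kept), 17 rose and 3 fell from BC1 to APLNR+ cells, 11 rose and 9 fell at the next transition, into CD31+CD34+ cells, and 0 rose and 20 fell at the last, into CD43+ cells. Of all genes, 9.15% rose and 9.32% fell at the first transition, 13.0% and 11.4% at the second and 7.63% and 13.5% at the last. The median changes of the pathway genes on the log2(FPKM + 1) scale were 0.63, -0.06 and -0.95, beside 0.00, 0.01 and -0.08 for all genes. Of the 12 other BMP and GDF ligands only 3 were kept. GDF3, a ligand of pluripotent cells, reached the highest level of them, at 7.61, 10.2, 2.16 and 1.16 FPKM from BC1 to CD43+ cells, and fell at the second transition. BMPR1B, the other type I receptor of the BMPR1 pair, stayed at or below 0.618 FPKM.

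Of the other receptors and coreceptors (7 of 9 kept), 2 rose and 0 fell into APLNR+ cells (9.15% and 9.32% of all genes), 2 rose and 3 fell into CD31+CD34+ cells (13.0% and 11.4%), and 0 rose and 4 fell into CD43+ cells (7.63% and 13.5%). The 2 that rose into CD31+CD34+ cells were ACVRL1, the endothelial type I receptor ALK1, and the coreceptor ENG (endoglin). ACVRL1 was at 0.391 FPKM in undifferentiated cells, 2.80 FPKM in mesoderm cells, 81.2 FPKM in HEPs and 1.87 FPKM in HPCs. ENG was at 2.35, 3.94, 74.0 and 10.6 FPKM in the same order. In CD31+CD34+ cells ACVRL1 was therefore above both BMPR1A (11.9 FPKM) and BMPR2 (11.2 FPKM). RGMB, a BMP coreceptor, was at 6.85, 15.2, 4.24 and 0.796 FPKM.

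Of the other extracellular modulators (12 of 18 kept), 5 rose and 2 fell into APLNR+ cells, where 9.15% and 9.32% of all genes did. At the later transitions the counts were nearer to those of all genes, with 1 rise and 2 falls beside 13.0% and 11.4%, and then 0 rises and 3 falls beside 7.63% and 13.5%. CER1, which encodes the Nodal and BMP antagonist Cerberus, was at 2.496 FPKM in undifferentiated cells, 2991 FPKM in mesoderm cells, 0.0905 FPKM in HEPs and 0.0497 FPKM in HPCs. It was higher in APLNR+ cells than any of the 10 members. FST, which encodes the activin-binding protein follistatin, was at 3.47, 44.8, 1.19 and 0.0207 FPKM from BC1 to CD43+ cells, also with its peak in APLNR+ cells. SOST, which encodes the Wnt antagonist sclerostin, was at 0.0498, 0.0914, 154 and 0.505 FPKM and so was high in CD31+CD34+ cells alone, where BMPER was at 136 FPKM. TWSG1, a partner of Chordin, rose at the first transition from 8.36 to 20.6 FPKM, and FSTL1 fell at the last from 229.7 to 26.3 FPKM.

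Of the SMADs and intracellular inhibitors (9 of 9 kept), 4 rose and 0 fell into APLNR+ cells, beside 9.15% and 9.32% of all genes, and 0 rose and 5 fell into CD43+ cells, beside 7.63% and 13.5%. Into CD31+CD34+ cells 2 rose and 1 fell, shares near the 13.0% and 11.4% of all genes. The inhibitors SMAD6, SMAD7 and BAMBI were among the 4 that rose first. SMAD6 was at 3.21, 206, 486 and 24.2 FPKM from BC1 to CD43+ cells. SMAD7 was at 13.0, 46.0, 32.2 and 1.27 FPKM, with the lowest level in CD43+ cells. BAMBI, a decoy receptor, was at 14.3, 145, 87.5 and 101 FPKM and was not among the genes that fell into CD43+ cells. SMURF2, a ubiquitin ligase of the pathway, was at 8.14, 5.25, 15.5 and 4.19 FPKM.

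Of 12 target genes of BMP signalling (3 of which, SMAD6, SMAD7 and BAMBI, are also on the list of SMADs and inhibitors), 9 rose and 1 fell into APLNR+ cells, 5 rose and 2 fell into CD31+CD34+ cells, and 0 rose and 8 fell into CD43+ cells. The shares of all genes were 9.15% and 9.32%, 13.0% and 11.4%, and 7.63% and 13.5%, so that the 2 falls into CD31+CD34+ cells were near the background. The medians of the target genes on the log2(FPKM + 1) scale were 1.91, 0.00 and -2.21. HAND1, a transcription factor of mesoderm that is also on the mesoderm marker list, was at 0.309 FPKM in undifferentiated cells, 357 FPKM in mesoderm cells, 5.57 FPKM in HEPs and 0.796 FPKM in HPCs, high in the same library as BMP2 and BMP4. MSX2, a homeobox gene, was at 0.307, 31.2, 6.98 and 0.765 FPKM. The study places HAND1 downstream of TGF-beta signalling and lists MSX2 among the factors lowered by a TGF-beta inhibitor. The cells also received activin A. Which signal the changes of the listed target genes followed was not tested.

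ID1, ID2 and ID3, which encode inhibitors of basic helix-loop-helix factors, were highest in a later population than BMP2 and BMP4. ID1 was at 108 FPKM in undifferentiated cells, 49.5 FPKM in mesoderm cells, 636 FPKM in HEPs and 18.7 FPKM in HPCs, and was the target gene that fell at the first transition. ID2 was at 14.9, 65.7, 320.5 and 67.3 FPKM and ID3 at 35.5, 42.4, 159 and 3.30 FPKM in the same order. The 3 ID genes thus had their highest level in CD31+CD34+ cells, the library in which BMP6, CHRD, ACVRL1, ENG and SMAD6 were highest too.

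**Figure D4:**
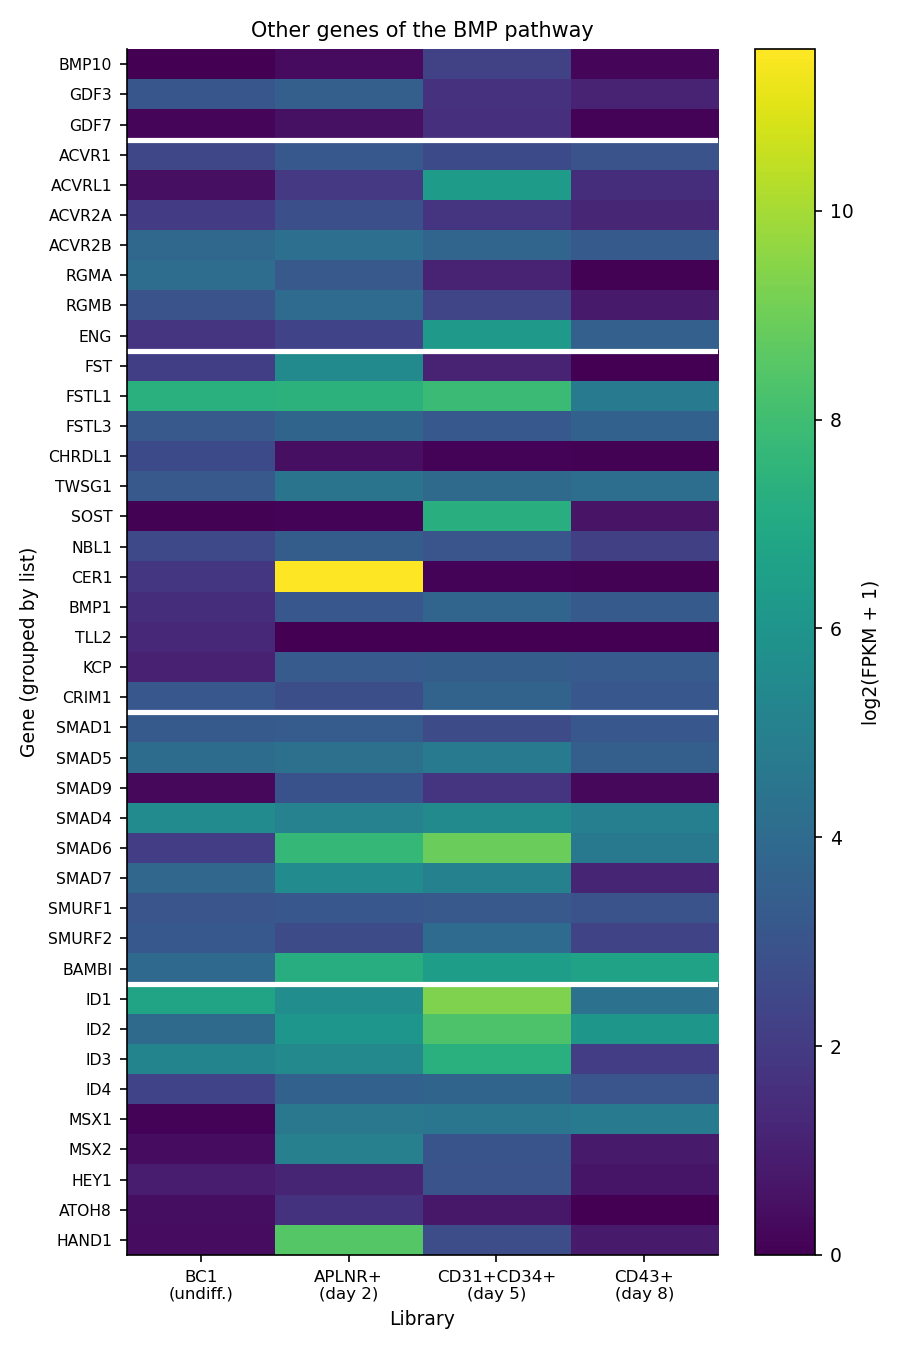
Heat map of log2(FPKM + 1) (colour scale) for the 40 other pathway genes kept, by library, with white lines between the lists of other ligands, receptors and coreceptors, extracellular modulators, SMADs and intracellular inhibitors, and target genes. CER1 and HAND1 stand out in APLNR+ cells (2991 and 357 FPKM), and SMAD6, ID1, SOST, ACVRL1 and ENG in CD31+CD34+ cells (486, 636, 154, 81.2 and 74.0 FPKM).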

How the data were processed

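The authors deposited gene-level FPKM values for 4 libraries made from total RNA with a TruSeq RNA kit, 1 library for each population. The submitters' processing notes name BWA, Bowtie, RSEM and hg19 without a role, and versions and the strand setting are not given in the sources used here. Of the 58274 identifiers, 58011 (99.5%) were found in GENCODE release 29 in any version. Positions were compared for the 10 members only and are printed 1-based. They equal those of release 29 on GRCh38 for all members but BMPER. For BMPER, the deposited 33904911 to 34155872 lies inside the 33904308 to 34156356 of release 29. Rows of 1 identifier were summed, which concerned 90 identifiers and none of the 10 members. The file's BMPER entry has another version than release 29.

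Fragments were approximated from the steps between low FPKM values of genes with 1 transcript of at least 1000 bases. With 19400000 (BC1), 21200000 (APLNR+), 23300000 (CD31+CD34+) and 21200000 (CD43+) mapped fragments, between 93.2% and 95.1% of the low values used lay within 0.1 of a whole number. Each gene's fragments used the median length over its protein-coding transcripts. The floor was 3 fragments, which stood in for a value of 0 in ratios, then given as bounds.

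Changes are differences of log2(FPKM + 1), which understate the change of low genes, over the 17137 genes that reached 1 FPKM in any library. The threshold was 1. Without replicates no test was run. The 10 members and all gene lists were chosen with earlier results of these data known. Named genes were all members, the sorting markers, the 3 nearest profiles of each member reaching 10 FPKM, and up to 3 called genes of each pathway list and transition with the largest change among those reaching 10 FPKM. Genes named outside this rule (BMPR1B, THPO and single markers) were chosen after their values were seen. HJV had no row. Other pseudocounts (0.1 and 0.01), filters, thresholds, scalings and transcript lengths were tried. The scripts were tested on simulated data. Python 3.11.15, numpy 2.4.6, pandas 2.3.3, scipy 1.17.1 and matplotlib 3.10.9 were used.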

Additional observations from a re-analysis of the deposited data

How the results depend on the processing

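No paired analysis was possible because the labels give no replicate numbers and each population had 1 library, and for the same reason no library could be left out. Of the 18 member changes past the threshold, 0 turned direction under 3 other scalings, whose shifts were too small to turn such a change. Other pseudocounts (0.1 and 0.01) cannot turn a direction, and no member had more than 1 row, so these settings were no check of it. The member calls that differed were 4 with each of the pseudocounts and 2 after rescaling to TPM. They were 2 after median-of-ratios scaling and 0 without mitochondrial and globin genes. The count of members that fell from BC1 to APLNR+ cells was 1, and became 2 with a pseudocount of 0.1, 2 with a pseudocount of 0.01 and 2 after rescaling to TPM, since BMP6 then passed at -2.08, -2.60 and -1.02, and 0 with a threshold of 2. The count of members that rose from APLNR+ to CD31+CD34+ cells was 2, and became 1 with a filter of 5 FPKM, 1 with a threshold of 2 and 1 after median-of-ratios scaling. The difference of BMP7 between BC1 and APLNR+ cells, 0.02, was -0.02 under that scaling. BMP2 at the last transition passed the threshold after rescaling to TPM.

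Of the other pathway genes, 3 fell from BC1 to APLNR+ cells, and 1 did so with a filter of 5 FPKM and 1 with a threshold of 2. With a threshold of 2, 10 rose at that transition in place of 17, 5 rose and 5 fell at the second in place of 11 and 9, and 12 fell at the last in place of 20. The median change of all genes at the last transition was -0.08, and was -0.19 after rescaling to TPM, -0.12 without mitochondrial and globin genes and 0.00 after median-of-ratios scaling, so that falls into CD43+ cells just past the threshold depend on the scaling. Depth limits the values that rested on fewer than 20 fragments: BMP5 in all libraries, BMP6 in APLNR+ and CD43+ cells, BMP7 in CD43+ cells, BMPER in BC1 cells and NOG in BC1 and CD43+ cells. The rises of BMP6 into CD31+CD34+ cells and of BMPER and NOG into APLNR+ cells start from such values.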
